A study of Homo sapiens with 6 samples.

Results

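The 10 genes described here encode the TRAIL death ligand, its 4 membrane receptors, the Fas receptor, and the proteins that join an engaged receptor to the first caspases: TNFSF10, TNFRSF10A, TNFRSF10B, TNFRSF10C, TNFRSF10D, FAS, FADD, CASP8, CASP10 and CFLAR. They were taken by gene symbol from a table of 32353 genes, and all 10 had 1 entry each. A filter on low counts left 17887 genes to test, among them 9 of the 10; TNFRSF10C did not pass it. RNA of CAL27 cells, an established line of human tongue squamous cell carcinoma, was sequenced from cells that carried a control plasmid (3 libraries) and from cells made to overexpress RBM24 (3 libraries). RBM24 is an RNA-binding protein best known for regulating splicing and mRNA stability. All 6 libraries come from this 1 line; the vector, the time after plasmid delivery and whether the replicates were separate cultures are not given in the sources used here, so the p-values speak of the spread among these 6 libraries alone, and that spread may be technical.

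TRAIL and Fas ligand start the extrinsic route of apoptosis. A trimeric ligand clusters receptors whose cytoplasmic death domains recruit the adaptor FADD, and FADD in turn gathers procaspases 8 and 10 through death effector domains, so that they activate each other. c-FLIP, the product of CFLAR, carries the same domains without caspase activity and sits in this complex as its main regulator, while decoy receptors bind TRAIL without a working death domain. The signalling receptors are widely expressed on epithelial and carcinoma cells, and the TRAIL gene is inducible by interferon.

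The libraries held 53558773 to 68804210 gene counts. The level of RBM24 matched the labels, with 2.93 ± 0.576 CPM (counts-per-million) under the control plasmid against 120 ± 8.89 CPM under overexpression (SD, n = 3 each). The keratinocyte marker KRT5 lay between 629 and 688 CPM in every library. Other keratins of the marker list were far lower: KRT17 at 59.5 to 76.5 CPM, KRT6A at 25.2 to 31.1 and KRT14 at 3.50 to 4.83. The 8 squamous epithelial markers summed to 1719 to 1822 CPM in the control libraries and 1909 to 1924 with RBM24, a gap that moved with the groups and whose part in the results was not tested; none of the 8 passed the test. The immune markers PTPRC and CD3E were at 0 in 5 of 6 libraries each; the summed level of the 6 immune markers in the table was 18.8 to 21.9 CPM in the control libraries and 19.2 to 20.1 with RBM24, nearly all of it CD14. Fibroblast markers summed to 13.7 to 16.5 and 16.1 to 17.0 CPM, and endothelial markers to 9.53 to 11.7 and 8.73 to 9.72 CPM. Most of the fibroblast sum was COL1A1 (9.82 to 11.8 CPM), and nearly all of the endothelial sum was CDH5 (8.31 to 11.1 CPM). Control library 1 stood apart on the first principal component (-33.4, against -4.95 to 15.4 in the others). Its 3 small structured RNAs RN7SL1, RMRP and RPPH1 summed to 225 CPM, against 12.1 to 24.4 in the other 5 libraries.

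In the control cells the adaptor had the highest level per deposited length of the 10 members and 1 decoy receptor had at most 1 count in a library. Levels of different genes are compared per length, as the deposited FPKM values (fragments counted, divided by gene length and library total). FADD stood first at 39.1 ± 1.43 FPKM, above 94.1% of the tested genes, followed by the ligand gene TNFSF10 at 24.8 ± 2.85 and the receptor gene TNFRSF10B at 16.4 ± 0.366 (SD, n = 3 each). CASP8 followed at 9.52 ± 0.299, TNFRSF10A at 7.25 ± 0.431 and FAS at 5.78 ± 0.577 (SD, n = 3 each). Down to FAS, the FPKM values of each gene in the control libraries lay above all those of the next. CASP10 (3.11 ± 0.123), CFLAR (3.00 ± 0.259) and TNFRSF10D (2.80 ± 0.121) overlapped in this order and were not separated beyond their spread (SD, n = 3 each). With RBM24 the first 7 places were held by the same genes in the same order, and TNFRSF10D (2.84 ± 0.171) and CFLAR (2.59 ± 0.170), which again overlapped, changed places (SD, n = 3 each).

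**Figure D1:**
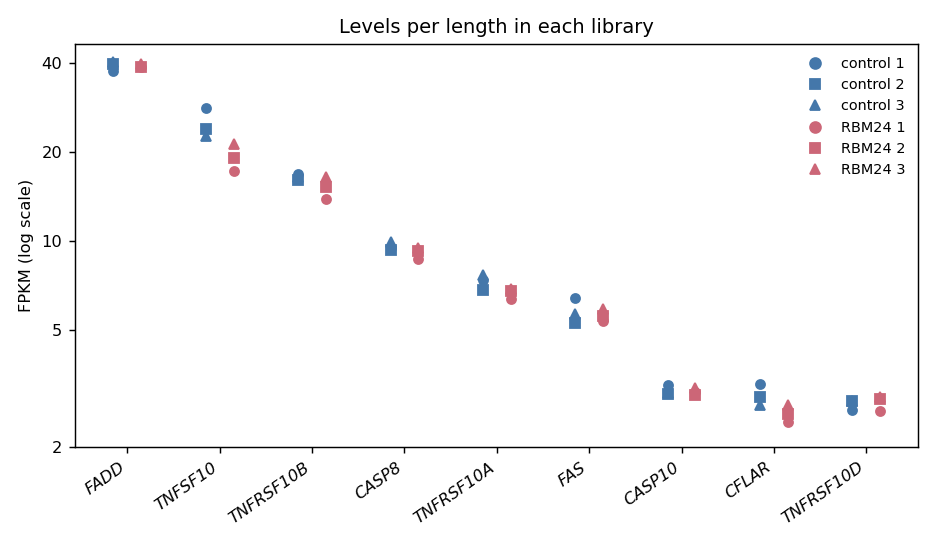
FPKM of 9 members (y axis, log scale) in each library, blue for control and red for RBM24, with members ordered by their control mean on the x axis. FADD sits near 39 in both groups, TNFSF10 is the member whose groups are farthest apart, and CASP10, CFLAR and TNFRSF10D lie close together near 3.

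The order of these levels, with the low place of CFLAR, depends on the lengths by which the counts were divided. The deposited counts and FPKM values together imply a length of 24.3 kb for CFLAR, close to the 22.5 kb that all its annotated exons cover in GENCODE 29, whereas its longest annotated coding transcript has 14.7 kb and the median one 1.21 kb. For CASP8 the implied length was 7.83 kb, against 2.93 kb for its longest coding transcript. For TNFSF10 it was 3.72 kb against 1.95 kb, and for FADD 1.85 kb against 1.84 kb. FAS was divided by 6.03 kb, more than the 4.25 kb that its annotated exons cover. Before division by length, CFLAR (73.8 ± 7.92 CPM) and CASP8 (75.4 ± 1.08 CPM) had nearly equal shares of the control reads (SD, n = 3 each). On this scale TNFSF10 (93.5 ± 12.6 CPM) stood above FADD (72.9 ± 1.53 CPM) in the control libraries (SD, n = 3 each). FAS (35.3 ± 4.00 CPM) stood above TNFRSF10A (23.2 ± 1.14 CPM) there (SD, n = 3 each). The first place of FADD and the places of CASP8 and FAS therefore hold for the deposited lengths only. Changes within a gene do not depend on these lengths.

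TNFSF10, the gene for TRAIL, was the member that fell with RBM24. The gene (ENSG00000121858.11) lies on the minus strand of chromosome 3, from 172505508 to 172523507 on GRCh38. Its control libraries held 107, 90.2 and 82.8 CPM, from 5909, 4850 and 5212 counts, and its RBM24 libraries held 63.9, 70.0 and 77.5 CPM, from 4409, 3785 and 4770 counts. The RBM24 libraries were thus the lower 3, but the closest pair, the third of each group, was 82.8 against 77.5, and control libraries differed among themselves by more than that. The mean went from 93.5 ± 12.6 to 70.4 ± 6.83 CPM (SD, n = 3 each), 1.33-fold lower in the fit (log2 change -0.41, SE 0.0824, 95% interval -0.58 to -0.23; edgeR quasi-likelihood test, Benjamini-Hochberg adjusted p = 0.0173). In RNA of whole cultures, fewer cells that express a gene and less RNA of it per cell cannot be told apart.

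The TNFSF10 call depended on single libraries and on the tool. Control library 1, which stood apart from the rest, held the highest TNFSF10 level; without it the log2 change was -0.30 (edgeR adjusted p = 0.0492), and without control library 3 it was -0.49 (0.00353). The call ended without RBM24 library 1 (-0.34, edgeR adjusted p = 0.0884) or RBM24 library 2 (-0.40, 0.0912). DESeq2 gave -0.41 with an adjusted p of 0.0834, and limma on log2(FPKM + 1) gave -0.36 with an adjusted p of 0.190.

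The 250 bases before the RefSeq start of TNFSF10 are shown because this promoter is a textbook target of interferon signalling and the gene is the member past the threshold. The stretch is chr3:172523431-172523680 of GRCh38.p14, read on the minus strand, and capitals mark matches to 6 motifs searched on both strands: the interferon-stimulated response element (TTTC, any 2 bases, TTTC), the STAT element GAS (TTCNNNGAA), a loose NF-kB pattern (GGG, any 5 bases, CC), the AP-1 site (TGANTCA), a forkhead site (GTAAACA) and the GC box (GGGCGG).
TNFSF10: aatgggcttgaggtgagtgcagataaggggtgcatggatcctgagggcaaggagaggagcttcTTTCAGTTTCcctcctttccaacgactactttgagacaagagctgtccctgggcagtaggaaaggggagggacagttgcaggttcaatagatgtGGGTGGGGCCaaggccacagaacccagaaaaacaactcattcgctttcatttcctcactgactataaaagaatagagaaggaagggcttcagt
It held an interferon-response match, TTTCAGTTTC, at -187 to -178 from the start, a motif found in 3.02% of the 35116 upstream stretches of the same length in the table. It also held 1 match to the NF-kB letters, GGGTGGGGCC at -93 to -84, which 54.4% of those stretches hold. The letters are a description of the window and say nothing of factors bound there.

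The 4 TRAIL receptor genes lie together on chromosome 8 and none passed the test. TNFRSF10B encodes DR5, a signalling receptor, and was the most abundant receptor message here. Its control libraries held 93.6, 88.6 and 87.8 CPM and its RBM24 libraries 74.8, 80.9 and 87.6 CPM. RBM24 library 1 was the lowest, and the groups were apart by no more than 87.8 against 87.6; on FPKM they overlapped, with a lowest control value of 16.05 and a highest RBM24 value of 16.44. The log2 change was -0.15 (SE 0.0578, 95% interval -0.27 to -0.03; edgeR unadjusted p = 0.0189, adjusted p = 0.263). RHOBTB2, on the opposite strand, overlaps it at 11.7 CPM on average, and without a known strand setting reads of the overlap cannot be told apart.

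TNFRSF10A encodes DR4, the other signalling receptor. It held 23.9, 21.9 and 23.8 CPM in the control libraries and 20.1, 21.1 and 21.4 CPM with RBM24. The RBM24 libraries were the lower 3 in CPM but not in FPKM, where the lowest control value was 6.78 and the highest RBM24 value 6.88. The log2 change of -0.15 (SE 0.0636, 95% interval -0.29 to -0.02) had an unadjusted p of 0.0281 and an adjusted p of 0.307 in edgeR. The opposite-strand transcript AC100861.1 overlaps TNFRSF10A and averaged 8.34 CPM, against 22.0 for the receptor gene, so this value carries the same uncertainty.

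The decoy receptors differed from each other in level, not visibly between groups. TNFRSF10D encodes DcR2, whose death domain is truncated, and held 10.5, 11.2 and 10.8 CPM in the control libraries and 10.04, 11.02 and 11.1 CPM with RBM24. The groups overlapped, and its log2 change of -0.02 had a 95% interval of -0.18 to 0.14 (edgeR adjusted p = 0.954); the sign turned with scaling by total counts (0.013) and without control library 2 (0.0056) or RBM24 library 1 (0.03). TNFRSF10C, which encodes the membrane-anchored decoy DcR1 without a death domain, had 2 counts in all control libraries together and 1 in all RBM24 libraries. This is below 3 counts in every library, which correspond to 0.0436 to 0.0560 CPM, so no change can be given at this depth (counting error only). AC107959.4, on the same strand, overlaps TNFRSF10C and averaged 0.702 CPM, so the level of TNFRSF10C is uncertain.

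FAS, the receptor of Fas ligand, lies on the plus strand of chromosome 10 (88990582 to 89015785). Its control libraries held 39.8, 32.4 and 33.5 CPM and its RBM24 libraries 32.2, 33.0 and 34.8 CPM. Control library 1 was the high one and the other 5 libraries overlapped. The log2 change was -0.08 (SE 0.0735, 95% interval -0.24 to 0.07; edgeR adjusted p = 0.695), and without control library 1 it was 0.01. Gene counts do not separate the membrane form of Fas from the soluble form that arises by skipping of the exon for the membrane segment.

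**Figure D2:**
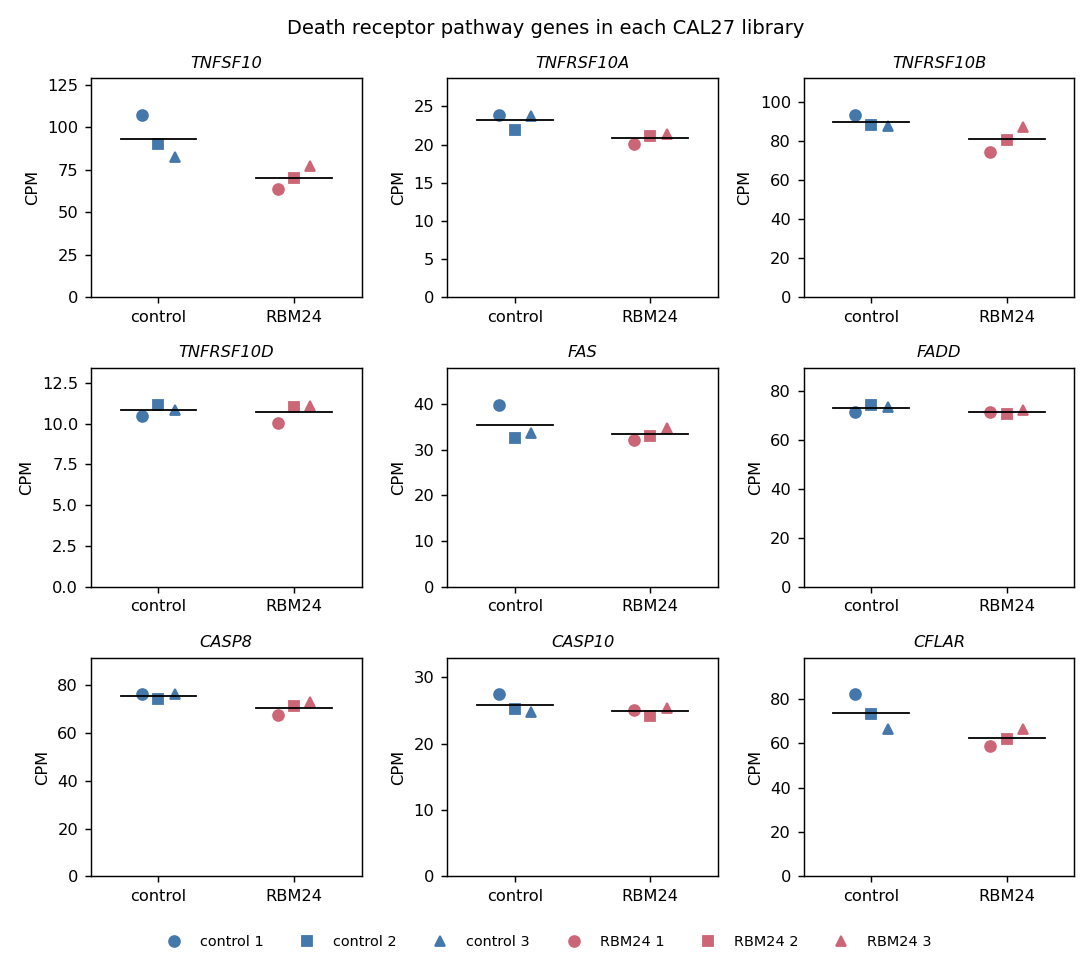
CPM (y axes, from 0) of the 9 tested members in the 3 control libraries (blue) and the 3 RBM24 libraries (red), with marker shape for the replicate number and a black line for each group mean. TNFSF10 and CFLAR show the widest gaps between means, and FADD lies between 70.6 and 74.3 in all libraries.

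The adaptor and the initiator caspases differed little between groups. FADD (ENSG00000168040.5, chromosome 11, 70203163 to 70207390) held 71.3, 74.3 and 73.2 CPM in the control libraries and 71.1, 70.6 and 71.9 CPM with RBM24. Its groups overlapped and its log2 change of -0.03 had the narrowest interval of the members, -0.13 to 0.07 (SE 0.0469; edgeR adjusted p = 0.822).

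CASP8, the main initiator caspase of this route, held 76.0, 74.2 and 76.1 CPM in the control libraries and 67.3, 71.3 and 72.8 CPM with RBM24. The RBM24 libraries were the lower 3 in CPM and overlapped the control libraries in FPKM (lowest control 9.29, highest RBM24 9.45). The log2 change was -0.10 (SE 0.0492, 95% interval -0.20 to 0.01; edgeR adjusted p = 0.411). CASP10, its close paralog, held 27.5, 25.3 and 24.7 CPM against 25.1, 24.2 and 25.5 CPM, which overlapped. Its log2 change was -0.05 (SE 0.0627, 95% interval -0.18 to 0.08; edgeR adjusted p = 0.791).

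CFLAR, the gene for c-FLIP, had the second largest difference and did not pass the test. It lies on the plus strand of chromosome 2 (ENSG00000003402.20, 201116104 to 201176687), next to CASP10 (201182881 to 201229406) and CASP8 (201233443 to 201287711), with gaps of 6.19 and 4.04 kb between them. The control libraries held 82.1, 73.1 and 66.3 CPM, from 4516, 3929 and 4173 counts, and the RBM24 libraries 58.7, 62.0 and 66.2 CPM, from 4056, 3352 and 4076 counts. The groups did not overlap in CPM, by the margin of 66.3 against 66.2, and the third libraries tied at 2.77 in FPKM. The log2 change was -0.24 (SE 0.0688, 95% interval -0.39 to -0.10; edgeR unadjusted p = 0.00262, adjusted p = 0.101).

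Whether CFLAR passed depended on the fit. DESeq2 gave the same log2 change of -0.24 with an adjusted p of 0.0452, so that it called CFLAR and not TNFSF10. edgeR called it without control library 3 (-0.32, adjusted p = 0.0215) and not without control library 1 (-0.16, adjusted p = 0.286). Gene counts do not separate the long and short c-FLIP forms, which arise by alternative splicing and differ in the caspase-like part. The antisense gene CFLAR-AS1 within the locus averaged 0.579 CPM, against 67.9 for CFLAR on the same scale of total counts.

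The CFLAR stretch is shown beside that of TNFSF10 because these were the members with the largest differences. RefSeq gives 4 starts for CFLAR, and which of them CAL27 cells use was not tested. The 250 bases before the first are chr2:201118466-201118715 of GRCh38.p14, plus strand, inside the gene as GENCODE 29 draws it, with capitals for the same motifs.
CFLAR: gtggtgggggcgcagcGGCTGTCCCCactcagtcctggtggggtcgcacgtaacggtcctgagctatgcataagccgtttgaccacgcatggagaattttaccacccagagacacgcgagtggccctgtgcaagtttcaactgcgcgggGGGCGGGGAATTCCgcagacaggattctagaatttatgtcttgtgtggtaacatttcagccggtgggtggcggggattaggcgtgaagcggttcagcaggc
It held NF-kB letters at -97 to -88 (GGGGAATTCC), which overlap a GC box, and on the other strand at -234 to -225 (GGCTGTCCCC). No interferon-response match lay in it. In the table, 42.6% of the stretches hold a GC box. Promoter entries were matched for 5 of the 10 members: TNFSF10, CFLAR, CASP8, FAS and FADD.

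Taken as a group, the members leaned to lower values with RBM24. Of the 9 tested, 1 fell and 0 rose at an adjusted p under 0.05, where 1.54% of all tested genes were called (0.682% lower, 0.855% higher). All 9 log2 changes were negative with the scaling used here, 8 of 9 with total counts, and their median was -0.10, against -0.0037 over all tested genes. Of the 17887 tested genes, 9190 had a negative change with the scaling used here. In 5 of 9 (TNFSF10, TNFRSF10A, TNFRSF10B, CASP8 and CFLAR) the RBM24 libraries were all lower than the lowest control library in CPM with the scaling used here. Of all tested genes 8.62% were separated this way, 9.53% the other way and 18.1% in either. The count depended on the scale: with counts over library totals it was 1 of 9 (5.31% of all tested genes) and with FPKM 1 of 9 (4.8%), TNFSF10 both times. The 9 genes were read in the same 6 libraries, so these counts do not add up as independent evidence.

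**Figure D3:**
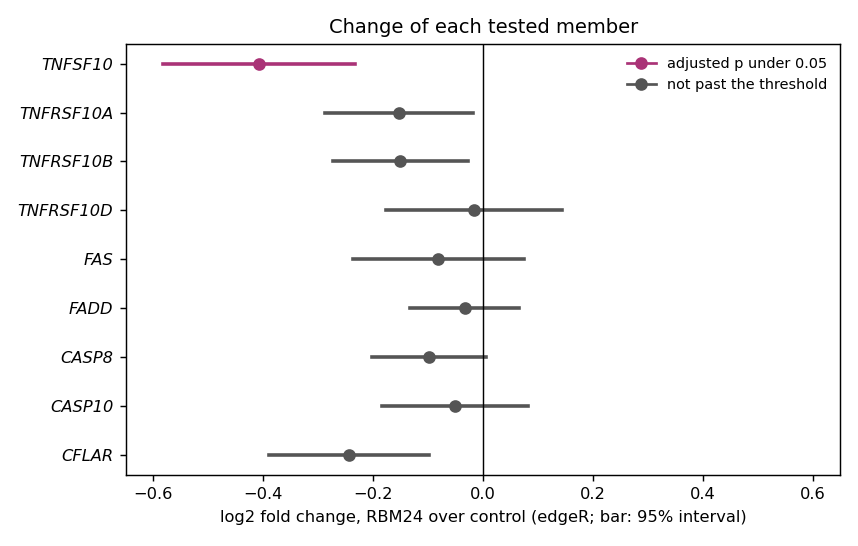
Log2 fold change of RBM24 over control (x axis) for each tested member, as points with 95% intervals from the edgeR fit. TNFSF10, in purple, is the member past the threshold at -0.41, and the intervals of TNFRSF10D, FAS, FADD, CASP8 and CASP10 include 0.

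TNFSF10, CFLAR and TNFRSF10B ranked the libraries alike in scaled CPM: control 1, 2 and 3, then RBM24 3, 2 and 1. This order was found in 0.783% of the tested genes (140 of 17887). With counts over library totals or FPKM, TNFSF10 was the only member with this strict order. Against their own mean over the 6 libraries, the log2 levels spanned 0.41 to -0.34 in TNFSF10, 0.28 to -0.20 in CFLAR and 0.13 to -0.19 in TNFRSF10B. Control library 3 and RBM24 library 3 were close for all 3 genes (0.04 and -0.06, -0.03 and -0.03, and 0.04 and 0.04), while the first library of each group stood at the ends. Control library 1 is also the one with the high small structured RNAs; the part of this in the result was not tested, and the log2 changes without that library were -0.30, -0.16 and -0.12.

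**Figure D4:**
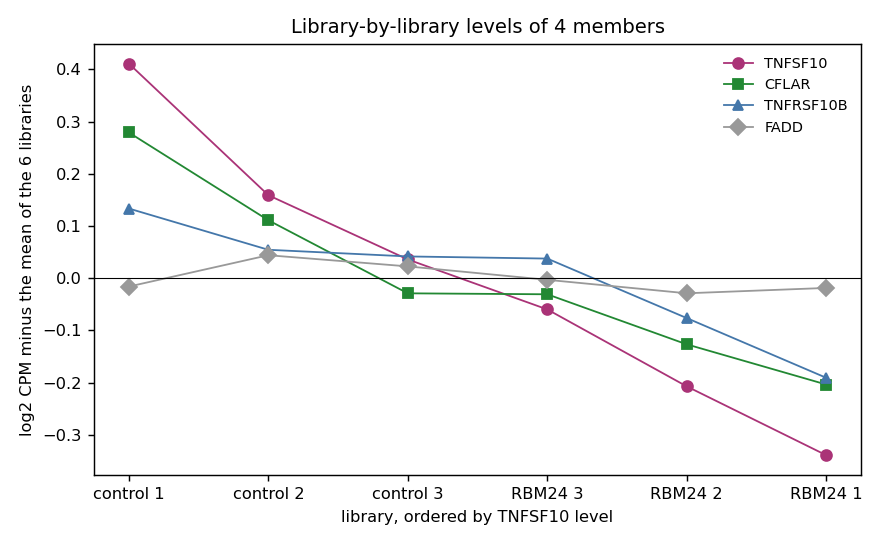
Log2 CPM of 4 members minus each gene's mean over the 6 libraries (y axis), with libraries ordered by TNFSF10 level (x axis). TNFSF10, CFLAR and TNFRSF10B step down in the same order on this scale, from 0.41, 0.28 and 0.13 in control 1, while FADD stays between -0.03 and 0.04.

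Among the 8282 genes whose log2 CPM averaged 4 or more, the closest in pattern to TNFSF10 over the 6 libraries were SGK1, a serum- and glucocorticoid-regulated kinase (Pearson r = 0.999), SLC9A7, a sodium-proton exchanger (0.995), USP12, a deubiquitinase (0.995), SERPINB4, a squamous cell carcinoma antigen (0.994), and the cytokine gene IL1A (0.994). These are the highest of many correlations over 6 points that share the libraries and the group difference, and are given as a description. Among the other members CFLAR had r = 0.989, TNFRSF10B 0.932, CASP8 0.862, TNFRSF10A 0.837, CASP10 0.773, FAS 0.757, FADD 0.368 and TNFRSF10D 0.233. SGK1 (log2 change -0.49, edgeR adjusted p = 0.0168), SERPINB4 (-0.51, 0.0191) and IL1A (-0.60, 0.0161) fell with RBM24, whereas SLC9A7 (-0.04, 0.774) and USP12 (-0.13, 0.310) did not pass. These genes were chosen for their likeness to TNFSF10, itself lower with RBM24 in the same libraries. The direction of their changes was set by that choice and is no separate result. SERPINB4 has a near-identical neighbour, SERPINB3, so its reads are uncertain.

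Ratios within a library ask whether the balance of the members differed. The ratio of CFLAR to CASP8 FPKM was 0.348, 0.318 and 0.281 in the control libraries and 0.282, 0.28 and 0.293 with RBM24. The third control library fell among the RBM24 values, so the groups overlapped (difference in mean log2 ratio -0.14; exact two-sided permutation p = 0.3, the smallest possible being 0.1). The difference was -0.07 without control library 1 and -0.22 without control library 3. It was 1 of 2 ratios tested.

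The ratio of decoy to signalling TRAIL receptors, (TNFRSF10C + TNFRSF10D) over (TNFRSF10A + TNFRSF10B) in FPKM, was 0.111, 0.126 and 0.119 in the control libraries. With RBM24 it was 0.131, 0.133 and 0.127, and the groups did not overlap, narrowly (0.126 against 0.127). The difference in mean log2 ratio was 0.14 (exact two-sided permutation p = 0.1, the smallest that 3 against 3 can give, so this design cannot pass 0.05), or 0.09 without control library 1. TNFRSF10C held at most 0.01 FPKM, so the decoy sum was nearly all TNFRSF10D, at mean FPKM of 2.80 (control) and 2.84 (RBM24). The ratio therefore mostly restates the lower means of TNFRSF10A and TNFRSF10B, neither of which passed the test.

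The wider extrinsic pathway showed no call. Of 39 further genes of ligands, receptors, adaptors, ubiquitin enzymes and downstream caspases, 36 were tested and 0 passed in edgeR (6 at an unadjusted p under 0.05, which 13% of all tested genes reached; 0 also in DESeq2). Of the 36 log2 changes 16 were positive and 20 negative, with a median of -0.01. Among all tested genes 8697 were positive and 9190 negative. FASLG did not pass the filter, and TNFRSF6B and RIPK3 had no entry under these symbols among the 32353 genes.

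The smallest p among them belonged to TNFAIP3, which encodes A20, an ubiquitin-editing brake on NF-kB and on death signalling. It held 394, 362 and 316 CPM in the control libraries and 251, 271 and 332 CPM with RBM24, which overlapped through the third libraries (log2 change -0.33, edgeR adjusted p = 0.0892). BID, the substrate by which caspase 8 engages mitochondria, had a log2 change of -0.21 (adjusted p = 0.127), and the ligand gene TNF one of -0.32 (adjusted p = 0.275), both with overlapping groups. Without control library 3, edgeR called TNFAIP3, BID and TNF lower, and without RBM24 library 3 it called TNFAIP3.

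PEA15, a death effector domain protein that blocks the receptor complex, had a log2 change of 0.12 (edgeR adjusted p = 0.296), and the apoptosome scaffold APAF1 one of -0.15 (adjusted p = 0.349). DIABLO, the mitochondrial antagonist of IAP proteins, had 0.66 (adjusted p = 0.0904), but the entry counted under this symbol averaged 1.22 CPM. It shares its strand and place with an entry at 62.1 CPM that the annotation used for coordinates also names DIABLO. The change of that larger entry is not reported here, so 0.66 cannot be read as the change of the gene. The entry at 1.22 CPM also stands for DIABLO in the pathway counts, median and plot.

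Of 19 transcription factors known to act on member genes, 1 fell and 1 rose, where 1.54% of all tested genes were called, and the median log2 change was -0.04. An unadjusted p under 0.05 was reached by 11 of the 19, against 13% of all tested genes. IRF1, an interferon-induced activator that acts on the TNFSF10 promoter, held 324, 340 and 297 CPM in the control libraries and 251, 271 and 273 CPM with RBM24. It fell in all 3 RBM24 libraries (log2 change -0.27, SE 0.0580, edgeR adjusted p = 0.0236). The IRF1 call ended without control library 2 (edgeR adjusted p = 0.0682), RBM24 library 1 (0.164) or RBM24 library 2 (0.108), and with limma on log2(FPKM + 1) (0.147). FOS, an AP-1 subunit, held 2.78, 2.18 and 2.24 CPM in the control libraries and 4.75, 4.60 and 4.31 CPM with RBM24. It rose by 0.93 on the log2 scale (SE 0.117; adjusted p = 4.73e-04 in edgeR). The FOS call held in 16 of the 17 alternatives and ended with limma on log2(FPKM + 1) with no filter (0.47, adjusted p = 0.101).

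The stress factor DDIT3, a known activator of TNFRSF10B, had a log2 change of 0.18 and did not pass (edgeR adjusted p = 0.239). Whether it bore on that receptor gene was not tested. The edgeR test was not passed by JUN (-0.22, adjusted p = 0.188) or MYC (-0.12, 0.276) either.

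**Figure D5:**
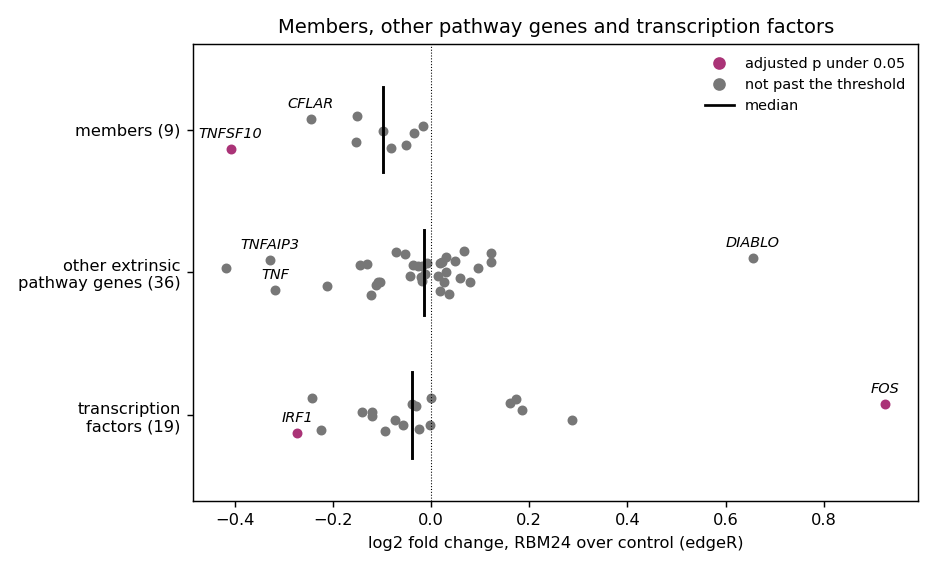
Log2 fold change of RBM24 over control (x axis) for the 9 tested members, 36 other genes of the extrinsic pathway and 19 transcription factors, with a vertical bar for each median and vertical scatter within a row for display only. TNFSF10, IRF1 and FOS, in purple, passed the test, and the medians were -0.10, -0.01 and -0.04.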

How the data were processed

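HISAT2 and the build GRCh38 are named in the submitters' processing notes. The aligner's version, the counting tool, the annotation release and whether strand was used are not given in the sources used here. Raw counts, whole numbers, were deposited for 32353 genes. The deposited FPKM table holds 31513 genes, divided by length and library total by the authors and rounded to 2 decimals. The NC columns were taken for the control plasmid and the OE_RBM24 columns for overexpression.

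Counts were fitted in R 4.3.3 with edgeR 4.0.16: filterByExpr (17887 genes kept), TMM factors (0.976 to 1.02), a quasi-likelihood F test of group alone with 4 residual degrees of freedom, Benjamini-Hochberg adjustment over all tested genes, and a threshold of 0.05. CPM values use TMM-scaled totals. Intervals of 95% come from the SE of the fit. Chi-square values per gene between pairs of libraries were 4.20 to 30.1, so none was a copy of another. Control pairs gave 9.54 to 19.9, RBM24 pairs 4.20 to 10.5 and pairs across groups 7.81 to 30.1. Some control libraries thus differed more from each other than from an RBM24 library. On simulated counts of 17887 genes the fit recovered 23 of 50 genes changed 1.25-fold, 37 of 50 at 1.5-fold and 49 of 50 at 4-fold, with 21 false among 175 calls.

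The members, gene lists and tests were chosen with earlier results of these data known. Named genes are RBM24, the members, list genes past the threshold plus the 6 (pathway) or 4 (transcription factors) with the next smallest p, and the 5 closest in pattern to TNFSF10. Of these, 1 transcription factor is not reported here. Alternatives were other scalings, filters, DESeq2 1.42.0, limma 3.58.1 (voom, and log2 FPKM with 1 or 0.1 added), the replicate number as a block, and each library left out. Coordinates come from GENCODE 29 and upstream stretches from RefSeq (GRCh38.p14). Splicing and iRIP-seq were not analysed here.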

Additional observations from a re-analysis of the deposited data

How the results depend on the processing

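The number of all genes called was 275 (153 higher, 122 lower), and of the members 1, of the pathway list 0 and of the transcription factors 2. With no filter on low counts these were 646, 2, 4 and 3. On log2(FPKM + 1), log2(FPKM + 0.1) and log2(FPKM + 1) with no filter, limma called 50, 62 and 19 genes, 0, 0 and 0 members and 1, 1 and 0 transcription factors. With each library left out in turn the ranges were 90 to 328 genes, 0 to 2 members, 0 to 3 pathway genes and 1 to 2 transcription factors. Scaling by total counts made 67.8% of the calls higher, against 55.6%. DESeq2 also called 1 member, but CFLAR in place of TNFSF10. The log2 change of TNFSF10 was negative under all 17 alternatives (-0.49 to -0.30), past the threshold in 11; that of CFLAR was negative in all 17 (-0.32 to -0.15), past it in 3. TNFRSF10D turned to 0.0128 with total counts, 0.0134 on log2(FPKM + 1) with or without the filter and 0.0173 on log2(FPKM + 0.1), and ran from -0.0427 to 0.0300 with libraries left out (positive without control library 2 or RBM24 library 1). FAS ran from -0.138 to 0.0134 (positive without control library 1). The members with every RBM24 library below every control library, 5 in scaled CPM, were 1 with counts over library totals and 1 in FPKM, both added after seeing the data. Both FPKM ratios kept their sign in the alternatives run.

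No pairing by replicate number was visible: the deviations of same-numbered libraries from their group means correlated at 0.00724, 0.0555 and -0.000390. Differently numbered libraries gave -0.109 to 0.0914. Such values cannot tell whether same-numbered libraries shared a culture or a batch. With the replicate block edgeR called 293 genes, 1 member (TNFSF10, adjusted p = 0.0189), 0 pathway genes and 2 transcription factors. For the ratios, the block was an exact two-sided test on sign changes of the differences between same-numbered libraries. Its p was 0.5 for CFLAR to CASP8, against 0.3 in the exact permutation test without the block. For decoy to signalling it was 0.25, against 0.1, each the smallest that its design allows.

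Depth limits TNFRSF10C, at 1 count or none in each library.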
